A study of Homo sapiens with 26 samples.

Results

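The mitosis genes described here were 43 genes whose products run the division of the cell: cyclins, mitotic kinases, spindle checkpoint proteins, mitotic kinesins, kinetochore proteins, spindle organisers, condensins and cytokinesis proteins. They were taken by gene symbol from the annotation of the array, and all 43 were among the 16600 genes that could be tested. MCF10A is an immortalised, non-tumorigenic line of human mammary epithelium that needs epidermal growth factor (EGF) to proliferate. The cells were grown in medium that itself held EGF and hydrocortisone, were starved overnight, and then received both EGF (10 ng per ml) and dexamethasone (DEX, 100 nM), EGF alone, DEX alone, or nothing. DEX is a synthetic glucocorticoid that binds the glucocorticoid receptor (GR). Each treatment was profiled on 8 exon arrays: 2 at each of 20, 40 and 60 min and 1 at each of 120 and 240 min. Untreated cells at 0 min were profiled on 2 arrays, for 26 arrays in all. The labels do not say whether replicate arrays came from separate cultures, so p-values measure only the spread between these arrays.

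A cell entering mitosis activates CDK1 bound to cyclin A (CCNA2) or cyclin B (CCNB1, CCNB2), and the kinases PLK1, AURKA and AURKB then build the spindle and attach it to the chromosomes. The kinetochore, which holds NDC80, NUF2, SPC25 and the centromeric proteins, is the point of attachment. Checkpoint proteins such as MAD2L1, BUB1B and TTK keep CDC20 from switching on the anaphase-promoting complex until every chromosome is attached. KIF23, PRC1, ECT2 and ANLN then shape the midzone and the cleavage furrow. The transcripts of most of these genes are low in quiescent cells and in G1 and rise towards G2 and mitosis. Much of that control is known to run through a promoter element, the cell cycle genes homology region (CHR), which binds the DREAM and MYB-MuvB complexes, often together with CCAAT boxes that bind NF-Y.

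Promoter sequences, running from 250 bases before the start of the gene to 50 after it, were available for 38 of the 43 genes (RefSeq, GRCh38.p14). The remaining 5 were AURKA, TTK, UBE2C, TPX2 and BIRC5. A CHR was searched as TTTGAA or TTCGAA on both strands, and 27 of the 38 promoters (71.1%) held one, against 16.6% of 27305 promoters in the whole table. CCAAT, on either strand, was found in 28 of the 38 (73.7%), against 35.7% of all promoters. A CHR together with 2 or more CCAAT matches occurred in 13 of the 38 (34.2%), against 1.98% of all. In 1 member promoter a CHR and a CCAAT match overlapped by a base. The CHR matches of the mitosis genes sat near the start of the gene, with a median position of -21.5 bases relative to it (36 matches), against -124 for the 5346 matches in all promoters.

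4 of these promoters are shown, each as the 250 bases before the start, with matches to CHR and CCAAT on either strand in capitals. KIF23 and PRC1 are shown because their transcripts differed between treatments in both of the main comparisons. KIF4A, NDC80 and SPC25, with a CHR, and AURKB and CENPI, without one, did so too. CCNB2 is shown because it holds a CHR and 4 CCAAT boxes. KIF20A is shown because no CHR letters lie in its window and its transcript differed least between EGF and DEX. A match is a description of the letters only.
KIF23, chr15:69414099-69414348, plus strand: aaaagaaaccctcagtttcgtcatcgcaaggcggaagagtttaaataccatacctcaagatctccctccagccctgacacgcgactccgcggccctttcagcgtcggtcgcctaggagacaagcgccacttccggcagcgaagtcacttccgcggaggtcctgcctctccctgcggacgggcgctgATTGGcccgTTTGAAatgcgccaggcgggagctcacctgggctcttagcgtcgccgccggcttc
PRC1, chr15:90994536-90994785, minus strand: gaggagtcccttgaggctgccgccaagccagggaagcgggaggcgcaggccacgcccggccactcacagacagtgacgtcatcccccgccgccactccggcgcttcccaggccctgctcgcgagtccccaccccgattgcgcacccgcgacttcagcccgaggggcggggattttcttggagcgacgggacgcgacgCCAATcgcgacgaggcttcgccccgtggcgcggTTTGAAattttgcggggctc
CCNB2, chr15:59104896-59105145, plus strand: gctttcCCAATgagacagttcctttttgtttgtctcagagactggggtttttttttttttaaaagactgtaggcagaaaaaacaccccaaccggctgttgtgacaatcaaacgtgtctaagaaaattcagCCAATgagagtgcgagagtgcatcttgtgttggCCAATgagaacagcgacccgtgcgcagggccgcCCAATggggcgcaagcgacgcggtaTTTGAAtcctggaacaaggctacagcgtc
KIF20A, chr5:138178862-138179111, plus strand: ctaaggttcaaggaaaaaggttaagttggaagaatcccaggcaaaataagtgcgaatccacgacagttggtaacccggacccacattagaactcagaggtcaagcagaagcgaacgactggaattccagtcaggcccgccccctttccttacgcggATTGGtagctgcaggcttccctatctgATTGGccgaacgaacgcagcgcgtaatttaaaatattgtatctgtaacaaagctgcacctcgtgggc

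The 43 genes were read by 1035 probesets, of which 947 lay above background, the median log2 intensity of probesets with no gene symbol (4.65). Each gene therefore had between 6 (SPC25) and 58 (CENPE) probesets behind its level. CDC20, PLK1 and KIF20A gave the brightest signals (mean log2 intensity 10.22, 10.18 and 10.18), and CDC25C, SPC25 and CDCA3 the dimmest (6.36, 6.14 and 5.93). Probes differ in response, so these levels do not order the genes by their RNA. Over the levels of all genes, replicates correlated at 0.977 to 0.986, and the share of probesets above background lay between 61.1% and 62.7%. That correlation mostly follows fixed differences between genes, so a group of genes can still shift between replicates. Of 5 genes known to respond to EGF or to DEX, 4 followed the treatments when EGF and DEX were compared. Over the 5 times the immediate-early genes EGR1 and FOS were higher with EGF than with DEX, with log2 differences of 1.53 and 0.68, and the GR targets TSC22D3 and FKBP5 were lower, with differences of -1.91 and -0.67. PER1, also a GR target, did not: it differed by 0.10 between EGF and DEX (adjusted p = 0.358). It was called higher with EGF against untreated cells (adjusted p = 0.0296) and was not called with DEX (adjusted p = 0.649). FOS was also called higher with DEX against untreated cells (largest difference 1.85, adjusted p = 0.0144), whereas EGR1 was called lower (-1.27, adjusted p = 0.0315). All 8 basal mammary markers lay above the stricter background (5.97), as did 2 of 4 luminal markers (GATA3 and FOXA1, not ESR1 or PGR), 2 of 6 fibroblast markers (COL1A1 and DCN), 1 of the 3 leukocyte markers measured (CD14) and 0 of 4 endothelial markers.

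The mitosis genes moved as a block from array to array. Over the 26 arrays, all 903 pairs of them correlated positively, from 0.22 to 0.96 with a median of 0.69, a description only, since every point shares its array with all the others. KIF14, a kinesin of late mitosis, and PRC1, which bundles the microtubules of the spindle midzone, followed the mean of the other members most closely (r = 0.94 each). CDC25C, the phosphatase that activates CDK1, followed it least (r = 0.57). On a scale where each gene is set against its own mean over the 26 arrays, the 43 genes averaged between -0.46 and 0.38 on single arrays. The mean of all genes, which can vary little in a normalized table, stayed between -0.04 and 0.04. The movement was not particular to the 43 genes. The lists of other mitosis genes and DNA replication genes described below averaged from -0.37 to 0.34 and from -0.48 to 0.36.

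**Figure D1:**
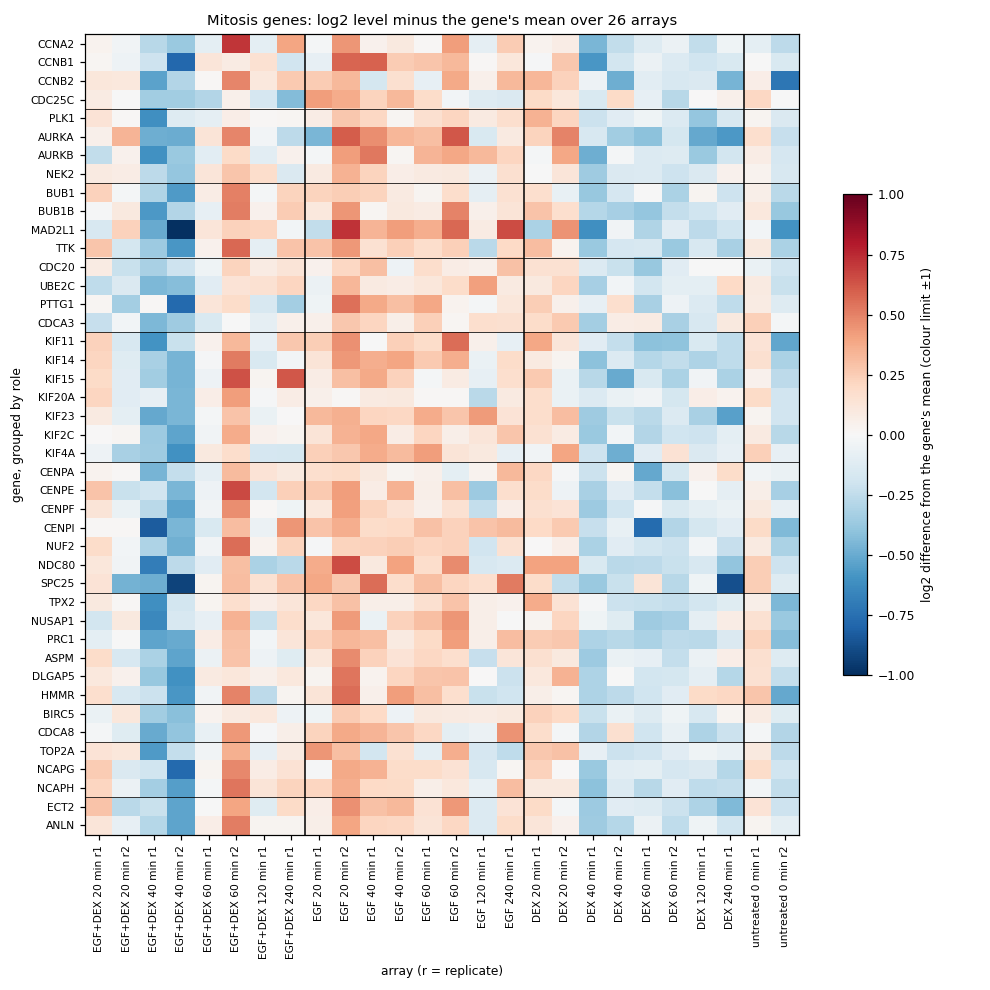
Log2 level of each of the 43 mitosis genes (rows, grouped by role) on each of the 26 arrays (columns, by treatment and time), minus the gene's own mean over all arrays. Nearly whole columns share a colour: the EGF+DEX arrays at 40 min are low for 42 and 43 genes, the second EGF array at 20 min is high for all 43, and the pair of untreated arrays differ from each other.

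The clearest difference was between cells given EGF and cells given DEX. Averaged over the 5 times, 42 of the 43 genes were higher with EGF (median log2 difference 0.26, against 0.03 over all genes), and 22 passed the test, all of them higher. Here and below, a gene is called changed where limma's moderated test gives a Benjamini-Hochberg adjusted p under 0.05 over all 16600 genes. Counts at an unadjusted p under 0.05 below lack the share of all genes at that threshold and are not read as a result. The mitosis genes were thus called in 51.2% of cases, against 28.4% of all genes in either direction and 20.4% in the higher direction. EGF arrays as a set had slightly more probesets above background (61.8% to 62.7%) than DEX arrays (61.1% to 62.2%), and the part of this in the result was not tested beyond quantile normalization, under which 16 genes were called. Leaving out single arrays gave 14 to 24 called genes, and leaving out all arrays at 40 or at 60 min gave 9 and 7. The share of all genes called under such alternatives is not given, here or below. Those counts therefore do not show whether a change is particular to the mitosis genes. In bulk RNA, fewer cells in G2 and mitosis and less of each transcript per cell cannot be told apart.

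KIF23, the kinesin of the centralspindlin complex that organises the midzone and the cleavage furrow, gave the smallest p. With EGF its log2 level was 8.36 and 8.40 at 20 min, 8.25 and 8.25 at 40 min, 8.41 and 8.31 at 60 min, 8.46 at 120 min and 8.18 at 240 min. With DEX it was 8.21 and 8.35 at 20 min, 7.69 and 7.82 at 40 min, 7.77 and 7.90 at 60 min, 7.72 at 120 min and 7.50 at 240 min. From 40 min on, every EGF array lay above every DEX array, while the DEX arrays at 20 min fell within the range of the EGF arrays. The mean difference was 0.51 ± 0.07 (SE), or 1.42-fold, with an adjusted p of 5.61e-05.

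SPC25, a subunit of the NDC80 complex that grips microtubules, showed the largest difference. Its log2 level ranged over 6.31, 6.43 and 6.70 (lowest, median, highest of 8 arrays) with EGF and over 5.27, 5.91 and 6.32 with DEX. The highest DEX array reached just above the lowest EGF array. SPC25 is among the dimmest members, with 6 probesets, of which 4 pass the stricter background (5.97). Its DEX median and its DEX level at 240 min lay below that background. Over all 8 arrays of each treatment none of the 43 genes separated EGF from DEX without overlap, beside 1.74% of all genes that did so upwards and 0.277% downwards. The difference of SPC25 was 0.59 ± 0.12 (SE), or 1.51-fold (adjusted p = 0.0015), and it was the 1 mitosis gene to exceed 1.5-fold. At 240 min, where each treatment has 1 array, SPC25 stood at 6.66 with EGF against 5.27 with DEX, a difference of 1.40 ± 0.31 (adjusted p = 0.0097) in which each lone array is taken to vary like the replicated ones.

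The genes called higher with EGF came from 9 of the 10 roles. All 4 mitotic kinases were called: AURKB, the kinase of the chromosomal passenger complex (0.42 ± 0.11, adjusted p = 0.00924), AURKA, which matures the spindle poles (0.43 ± 0.13, adjusted p = 0.0224), PLK1 (0.25 ± 0.08, adjusted p = 0.0269) and NEK2, which parts the centrosomes (0.20 ± 0.07, adjusted p = 0.0353). So were 6 of 7 kinesins, among them KIF14 (0.43 ± 0.10, adjusted p = 0.00428), and 3 of 4 spindle checkpoint genes, among them MAD2L1 (0.55 ± 0.16, adjusted p = 0.0157). Both cytokinesis genes, ECT2 and ANLN, were called at 0.39 and 0.26. PRC1 (0.38 ± 0.09, adjusted p = 0.00461) was the 1 called of 6 spindle assembly genes. Of 7 kinetochore and centromere genes 3 were called, namely SPC25, CENPI (0.43 ± 0.11, adjusted p = 0.00733) and NDC80 (0.28). NCAPH, a condensin subunit, was called (0.33 ± 0.09, adjusted p = 0.00992), and of the chromosomal passenger subunits CDCA8 (0.34) was and BIRC5 was not. None of the 4 genes of the anaphase-promoting complex and its substrates passed, and of the 4 cyclins and CDK regulators CCNB1 did (0.36 ± 0.11, adjusted p = 0.0224). These roles hold few genes each, and differences between roles were not tested.

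The genes that did not pass were mostly on the same side. CDC20, the activator that the checkpoint holds back, differed by 0.20 ± 0.08 (adjusted p = 0.0698) and BIRC5, or survivin, by 0.12 ± 0.07 (adjusted p = 0.21). TOP2A, the topoisomerase that untangles chromosomes, differed by 0.04 ± 0.09 (adjusted p = 0.771), and KIF20A, a kinesin of the midzone, by -0.00 ± 0.09 (adjusted p = 0.995). KIF20A had log2 levels of 9.91, 10.21 and 10.27 (lowest, median, highest) with EGF and 10.01, 10.13 and 10.35 with DEX, with the ranges nearly coinciding. Read probeset by probeset, 831 of the 947 (87.8%) were higher with EGF, and KIF20A and HMMR were the genes with fewer probesets higher than lower (42.9% and 44.4% higher). Of the genes called, 14 of the 20 with a promoter held a CHR, and of those not called 13 of 18 did.

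**Figure D2:**
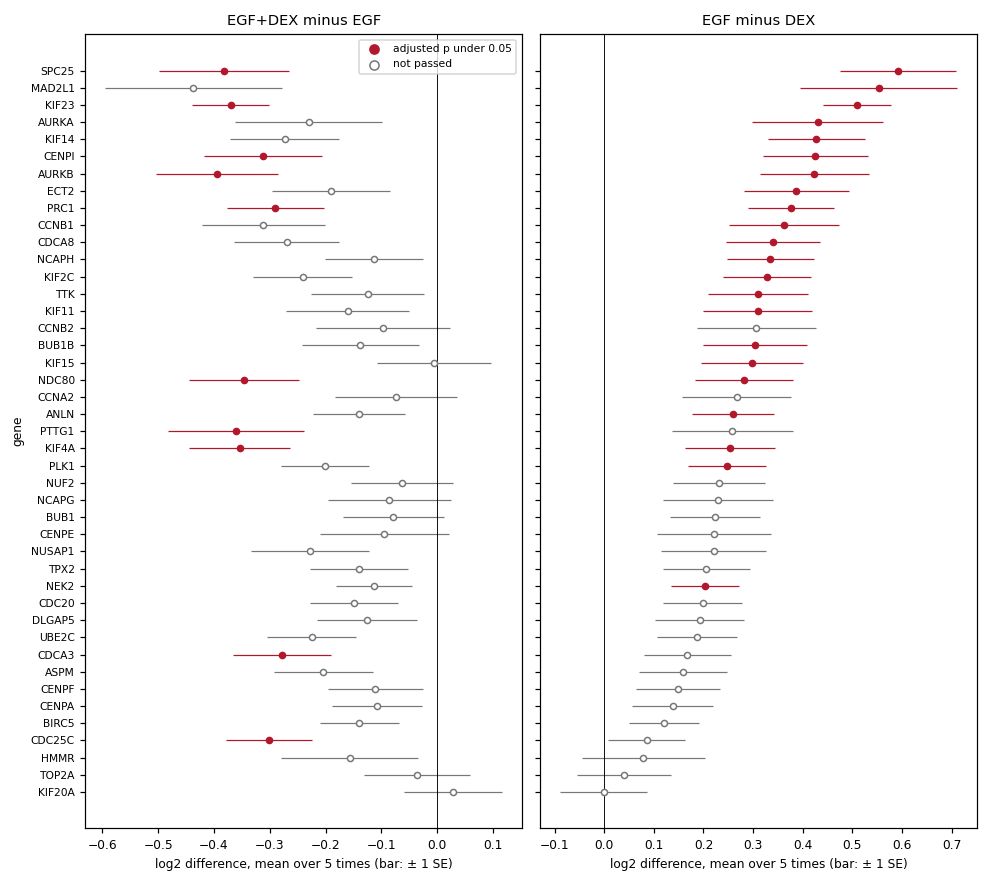
Log2 difference, averaged over the 5 times, for each of the 43 mitosis genes, EGF+DEX minus EGF on the left and EGF minus DEX on the right. Points are estimates, bars are 1 SE either side, and filled points have an adjusted p under 0.05: 10 genes on the left, all below 0, and 22 on the right, all above 0.

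The EGF to DEX difference was not yet called at 20 min. Because the 43 genes move together, counts of genes on a side, here and below, are not counts of independent observations. The untreated arrays alone differed by 0.36 in the mean of the 43 genes. At that time the median of the mitosis genes was 0.10 higher with EGF and 0 genes were called, beside 0.133% of all genes. At 40 min all 43 were higher, by a median of 0.43, and in 39 of them both EGF arrays lay above both DEX arrays (27.8% of all genes did), but 0 passed, beside 0.783% of all genes. At 60 min all 43 were again higher, by a median of 0.37, in 40 of them without overlap (34.1% of all genes), and 5 passed, beside 6.28% of all genes: KIF23, PRC1, CENPI, KIF11 and NUSAP1. KIF11, the motor that pushes the spindle poles apart, differed by 0.78 ± 0.21 at 60 min (adjusted p = 0.0373). At 120 and 240 min the medians were 0.17 and 0.29, KIF23 was called at both and SPC25 at 240 min, beside 3.27% and 7.25% of all genes. The change of the difference between 20 and 40 min was itself tested, and 0 members passed, beside 0.00602% of all genes (5 members had an unadjusted p under 0.05, and the smallest adjusted p was 0.871).

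The mean levels of the group were as follows. With EGF the 43 genes averaged 0.12 and 0.38 above their own means on the 20 min arrays, 0.21 and 0.19 at 40 min, 0.18 and 0.24 at 60 min, -0.02 at 120 min and 0.14 at 240 min. With DEX they averaged 0.16 and 0.14 at 20 min, -0.29 and -0.15 at 40 min, -0.20 and -0.19 at 60 min, -0.15 at 120 min and -0.16 at 240 min. The DEX arrays lay within the range of the EGF arrays at 20 min and below the EGF arrays of the same time at 40 min and later. The untreated arrays stood at 0.10 and -0.25, and so spanned most of the distance between the EGF and DEX arrays.

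Part of the group was also lower where DEX was added to EGF, mainly at 40 min. Over the 5 times 42 of the 43 genes were lower in cells given EGF+DEX than in cells given EGF (median -0.16, against -0.06 over all genes), and 10 passed, all lower. That is 23.3% of the members, beside 20.3% of all genes in either direction and 14% in the lower direction, so in either direction the share called was close to the background. The 10 were KIF23 (-0.37 ± 0.07, adjusted p = 0.00296), KIF4A (-0.35 ± 0.09, adjusted p = 0.0157), CDC25C (-0.30 ± 0.08, adjusted p = 0.0158), AURKB (-0.39 ± 0.11, adjusted p = 0.022), NDC80 (-0.35 ± 0.10, adjusted p = 0.0245), PRC1 (-0.29 ± 0.09, adjusted p = 0.0298), SPC25 (-0.38 ± 0.12, adjusted p = 0.0316), CDCA3 (-0.28 ± 0.09, adjusted p = 0.0351), PTTG1 (-0.36 ± 0.12, adjusted p = 0.0452) and CENPI (-0.31 ± 0.11, adjusted p = 0.047). KIF4A is a chromosome-bound kinesin, CDCA3 a trigger of mitotic entry, and PTTG1 is securin, the inhibitor of separase. MAD2L1 had the most negative difference, -0.44 ± 0.16, but did not pass (adjusted p = 0.0573). CCNB1 differed by -0.31 ± 0.11 (adjusted p = 0.0549), PLK1 by -0.20 ± 0.08 (adjusted p = 0.0757), AURKA by -0.23 ± 0.13 (adjusted p = 0.203), CDC20 by -0.15 ± 0.08 (adjusted p = 0.171), BIRC5 by -0.14 ± 0.07 (adjusted p = 0.153) and TOP2A by -0.04 ± 0.09 (adjusted p = 0.793). KIF20A was the 1 gene with a positive difference (0.03 ± 0.09, adjusted p = 0.826). Of the 10 called genes 6 held a CHR, and of the 28 not called with a promoter 21 did.

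The difference was largest at 40 min. There all 43 genes lay lower in EGF+DEX than in EGF cells, with a median difference of -0.62 on the log2 scale. The medians were -0.23 at 20 min, -0.06 at 60 min, 0.02 at 120 min and -0.11 at 240 min. In all 43 genes both EGF+DEX arrays at 40 min lay below both EGF arrays, which held for 33.3% of all genes. Since the genes move together, this compares a few arrays rather than 43 separate genes. At 40 min 9 genes passed, beside 1.43% of all genes: SPC25, CCNB1, CENPI, KIF4A, KIF14, CDCA8, PRC1, KIF23 and CDC25C. At 20, 60, 120 and 240 min 0 passed, beside 0.0181%, 0.319%, 0.904% and 0.988% of all genes. SPC25 stood at 5.65 and 5.21 with EGF+DEX against 6.70 and 6.32 with EGF at 40 min, a difference of -1.08 ± 0.22 (adjusted p = 0.0305). Both of its EGF+DEX values lay below the stricter background (5.97). CCNB1, cyclin B1, stood at 8.50 and 7.92 with EGF+DEX against 9.29 and 8.96 with EGF, a difference of -0.92 ± 0.21 (adjusted p = 0.0411). Without the 40 min arrays 0 of the 43 genes passed over the remaining times, with a median difference of -0.07.

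The EGF+DEX arrays at 60 min and later read higher than those at 40 min. The 43 genes averaged 0.07 and -0.06 at 20 min with EGF+DEX, -0.40 and -0.46 at 40 min, -0.01 and 0.35 at 60 min, -0.02 at 120 min and 0.08 at 240 min. The arrays at 60 min disagreed by 0.36, as much as the untreated pair did, and with the lower of them left out 5 genes were called over the 5 times in place of 10. PRC1 shows the course: with EGF+DEX its log2 level was 8.60 and 8.69 at 20 min, 8.17 and 8.19 at 40 min, 8.77 and 8.99 at 60 min, 8.67 at 120 min and 8.81 at 240 min. Its 40 min arrays were the lowest of all 26. For all 43 genes the EGF+DEX minus EGF difference was less negative or higher at 60 than at 40 min (median change 0.59). Yet 0 members passed a test of that change, beside 0 of all genes. At an unadjusted p under 0.05 there were 23 members, without the share of all genes, so that count is not read as a result.

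**Figure D3:**
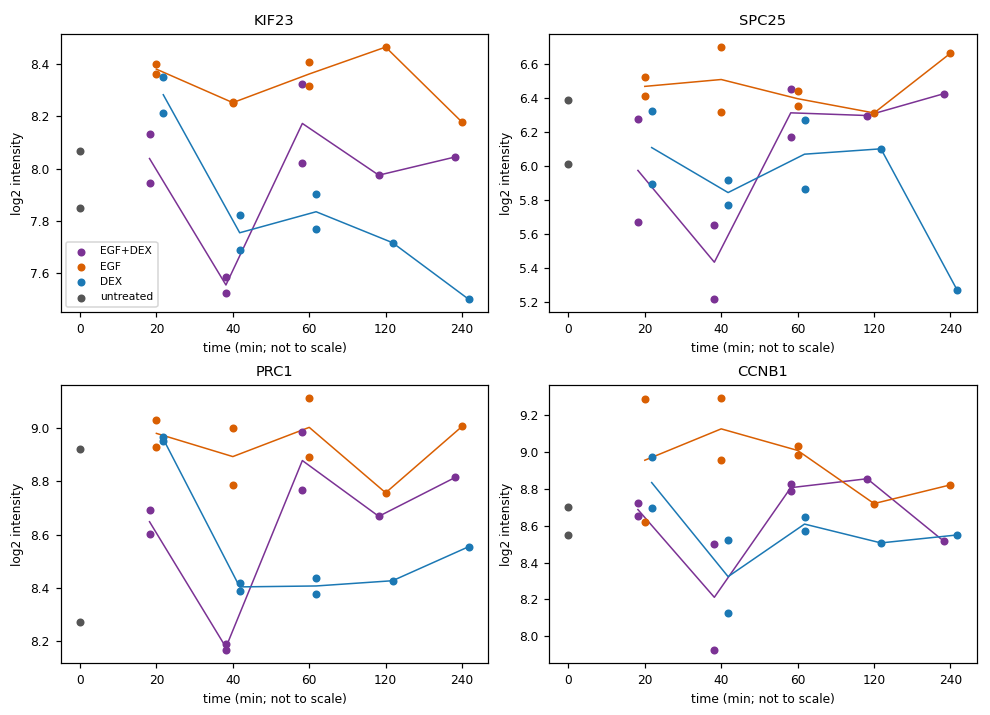
Log2 intensity of KIF23, SPC25, PRC1 and CCNB1 on each array (points) against time in min, by treatment, with lines through the mean at each time and the untreated arrays at 0 min. The EGF+DEX points dip at 40 min in each panel, and the DEX points lie below the EGF points from 40 min on.

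Between EGF+DEX and DEX no gene passed. Averaged over the 5 times 33 genes were higher and 10 lower with EGF+DEX (median 0.09, against 0.00 over all genes), and 3.14% of all genes were called. At an unadjusted p under 0.05 there were 3, and limma with a trended, robust prior also called 0. Without the first EGF+DEX array at 60 min 2 were called. KIF15, a kinesin that backs up KIF11, had the largest positive difference (0.29 ± 0.10, adjusted p = 0.142), followed by NCAPH (0.22 ± 0.09, adjusted p = 0.199) and SPC25 (0.21 ± 0.12, adjusted p = 0.385). CDC25C had the most negative (-0.22 ± 0.08, adjusted p = 0.151), then CDCA3 (-0.11 ± 0.09, adjusted p = 0.591) and PTTG1 (-0.10 ± 0.12, adjusted p = 0.761). For CCNB1, PLK1, CDC20 and TOP2A the differences were 0.05 ± 0.11, 0.05 ± 0.08, 0.05 ± 0.08 and 0.00 ± 0.09. For AURKA and BIRC5 they were 0.20 ± 0.13 and -0.02 ± 0.07. The sign of the difference turned with time: at 40 min 42 genes were lower with EGF+DEX than with DEX (median -0.21), and at 60 min all 43 were higher (median 0.37), in 34 of them without overlap between the arrays (25% of all genes). That turn was tested as well, and 0 members passed, beside 0 of all genes, with a smallest adjusted p of 0.333. The 25 members at an unadjusted p under 0.05 lack the share of all genes, so that count is not read as a result.

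Against the untreated arrays almost nothing passed. The test here asks whether a gene differed from untreated cells at any of the 5 times, and the 3 treatments share the same untreated arrays. With EGF+DEX 0 of 43 genes were called (5.21% of all genes). At an unadjusted p under 0.05 there were 24, and the robust setting called 1. The share of all genes in those 2 readings is not given here, so the counts are not read as a result. With EGF 0 were called (0.765% of all genes), with 3 at an unadjusted p under 0.05 and 0 in the robust setting. With DEX 1 was called (3.87% of all genes, 2.08% in the lower direction): KIF23, whose largest difference was -0.46 at 240 min (adjusted p over the 5 times = 0.0462). Of 34 alternatives that call was lost in 20, and in 3 more it was lost with the sign of the largest difference turned. Untreated KIF23 read 8.07 and 7.85, its DEX values lay above both at 20 min, and 5 of the 6 later ones lay below both. Averaged over the 5 times, the difference from untreated cells for KIF23 was -0.00 ± 0.10 with EGF+DEX, 0.37 ± 0.10 with EGF and -0.14 ± 0.10 with DEX, with adjusted p of 1, 0.118 and 0.576. CCNB1 differed from untreated cells by -0.01 ± 0.17, 0.30 ± 0.17 and -0.06 ± 0.17 with EGF+DEX, EGF and DEX, and AURKA by -0.02 ± 0.20, 0.21 ± 0.20 and -0.22 ± 0.20. PLK1 differed by 0.00, 0.20 and -0.04 (± 0.12 each), CDC20 by 0.13, 0.28 and 0.08 (± 0.12 each), TOP2A by 0.06, 0.10 and 0.06 (± 0.14 each), and BIRC5 by -0.03, 0.11 and -0.01 (± 0.11 each). The 43 genes differed by 0.36 on average between the untreated arrays themselves, all 43 lying below their own mean on the second array.

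Late arrays (120 and 240 min) hardly differed from early ones (20 to 60 min) over the 3 treatments together. The median difference was -0.02 (0.00 over all genes), 29 genes were lower and 14 higher, and 1 passed, beside 7.66% of all genes, 4.22% in the lower direction. It was NDC80, the microtubule-binding subunit of its complex, at -0.32 ± 0.09 (adjusted p = 0.0338), a call lost in 14 of 34 alternatives. Late NDC80 levels were 6.57 and 6.62 with EGF+DEX, 6.73 and 6.76 with EGF and 6.73 and 6.49 with DEX. Early ones ran from 6.20 to 7.19 with EGF+DEX, from 6.99 to 7.54 with EGF and from 6.62 to 7.29 with DEX, so that late and early arrays separated with EGF only. AURKA had nearly the same difference with more spread (-0.32 ± 0.12, adjusted p = 0.113), and UBE2C, the ubiquitin-conjugating enzyme of the anaphase-promoting complex, had the most positive (0.21 ± 0.07, adjusted p = 0.0889). CCNB1, CDC20, PLK1, TOP2A and BIRC5 differed by -0.07, 0.11, -0.06, -0.13 and 0.02. Whether the late minus early difference depended on the treatment was tested too: 0 genes passed, beside 2.31% of all genes, with 3 at an unadjusted p under 0.05, 0 in the robust setting and a smallest adjusted p of 0.279. By treatment the medians of late minus early were 0.13 with EGF+DEX, -0.13 with EGF and -0.06 with DEX.

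Genes outside the 43 but of the same or a neighbouring process also differed between the treatments. Of 81 other mitosis genes tested, 53 were called higher with EGF than with DEX and 0 lower (median 0.31), beside 20.4% of all genes called higher and 8.02% lower, led by CDC25A (0.74), which activates CDK2 and CDK1, and FBXO5 (0.61), an inhibitor of the anaphase-promoting complex. Of 47 DNA replication genes 35 were called higher and 0 lower (median 0.39), led by CCNE2, cyclin E2 (0.93), and MCM10 (0.77), a replication initiation factor. Of 31 regulators of quiescence and G1, 15 were called higher and 2 lower (median 0.20), with E2F5 and E2F7 at 0.84 and 0.82. Between EGF+DEX and EGF, 30 of the 81 other mitosis genes, 15 of the 47 replication genes and 13 of the 31 G1 and quiescence genes were called lower, and 0, 0 and 2 higher, beside 14% of all genes called lower and 6.24% higher. On the EGF+DEX arrays at 40 min the replication genes averaged -0.38 and -0.48 and the other mitosis genes -0.37 and -0.35, while the 43 mitosis genes averaged -0.40 and -0.46. At 240 min the replication genes averaged 0.28 with EGF against -0.37 with DEX, and the 43 mitosis genes 0.14 against -0.16. On the second untreated array the replication genes averaged -0.10, the other mitosis genes -0.20 and the 43 mitosis genes -0.25. The G1 and quiescence genes had a narrower range, from -0.23 to 0.17 over the 26 arrays.

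**Figure D4:**
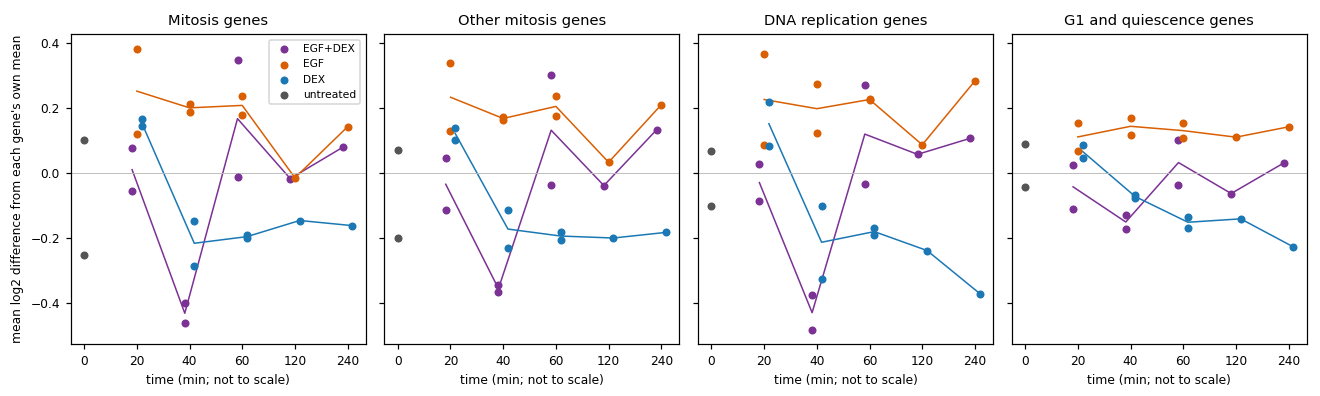
Mean log2 difference from each gene's own mean over 26 arrays, for 4 lists (43 mitosis genes, 81 other mitosis genes, 47 DNA replication genes, 31 G1 and quiescence genes), on each array (points) against time in min by treatment, with lines through the mean at each time. In the first 3 panels the EGF+DEX points are lowest at 40 min and the DEX points lie below the EGF points from 40 min on. The DEX points of the replication genes are lowest at 240 min (-0.37), those of the mitosis genes at 40 min.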

How the data were processed

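RNA of MCF10A cells was hybridised to Affymetrix Human Exon 1.0 ST arrays, 1 sample to an array. The authors made 1 linear intensity per probeset and deposited a table of 844005 probesets by 26 arrays, with values from 1 to 19500; their methods name Affymetrix Expression Console, with settings not given in the sources used here. Quartiles of the log2 intensity differed by less than 0.10 between arrays, so the table was taken as already normalized. Intensities were put on the log2 scale. Probesets with 1 gene symbol in the platform annotation (354421) and a mean above the median of probesets with no symbol were kept (262233), and genes with at least 3 of them were summarised by median polish, which gave 16600 genes. limma 3.58.1 (R 4.3.3) was fitted to all genes with a mean for each of 16 groups (10 residual degrees of freedom), and p-values were adjusted by Benjamini-Hochberg over all genes, with no minimum fold. Differences between treatments weight the 5 times equally. Groups with 1 array enter with the spread of the replicated groups. The arrays' number limits the precision. The scripts were tested on simulated data with known changes. Alternatives were the replicate number as a block, the filter on dim probesets, quantile normalization, a mean of probesets, a trended and robust prior, a 1.5-fold minimum, each array left out, other choices of times and, chosen after the data were seen, each time left out.

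Genes were named by a rule, which the text follows in part. In each comparison it names the called members, at most 10 of them in full, and the 3 largest differences either way. It also names the brightest and dimmest members, and CCNB1, CDC20, PLK1, AURKA, TOP2A and BIRC5. Last come the 2 genes with the largest difference in each further list, given here for EGF minus DEX only. The 3 largest differences are not given in every comparison, among them those against untreated cells. Further genes, the promoters shown, the per-time overlap and the tests of change between times were chosen after values were seen. The members and lists were chosen with earlier results of these data known. Promoters and their coordinates are from RefSeq (GRCh38.p14). Figures used Python 3.11.15 and matplotlib 3.10.9.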

Additional observations from a re-analysis of the deposited data

How the results depend on the processing

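The direction of every member called in EGF minus DEX and in EGF+DEX minus EGF was the same under all 39 alternatives of each, and SPC25 was called in all 39 for EGF minus DEX. For EGF against untreated and late minus early by treatment the count stayed at 0 throughout. All counts in this section are of members. The share of all genes called in each setting is not given, so a rise or fall may be common to all genes. The number of mitosis genes called for EGF minus DEX (22) went to 1 with a 1.5-fold minimum, 13 with times to 60 min only, and 9, 7 and 14 with all arrays at 40, 60 or 240 min left out. Leaving out single arrays gave 14 to 24, with 14 without the second EGF array at 20 min, or the 240 min array of EGF or of DEX. For EGF+DEX minus EGF (10) the count was 0 with a 1.5-fold minimum, 16 with times to 60 min only, and 3, 0 and 6 with all arrays at 20, 40 or 60 min left out. Without single arrays it was 5 to 14, with 5 without the first EGF+DEX array at 60 min and 6 without the first EGF array at 40 or at 60 min. For EGF+DEX minus DEX (0) it was 0 to 2, with 2 without the first EGF+DEX array at 60 min. For EGF+DEX against untreated (0) it was 1 with the replicate block, with the mean of probesets and with the trended, robust prior, and 2 with the stricter filter. Without single arrays it was 0 to 8, with 8 without the first EGF+DEX array at 60 min, 2 without either untreated array and 1 without the first EGF+DEX array at 20 min or the one at 120 min.

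For DEX against untreated (1, KIF23) the count was 0 with the replicate block, no filter, quantile normalization, a 1.5-fold minimum and times to 60 min only, and 0 to 2 without single arrays (2 without the second untreated array). KIF23's largest difference from untreated was -0.57 to 0.43 without single arrays. It was positive without the first untreated array (0.43, adjusted p = 0.062), without the DEX array at 240 min (0.33, adjusted p = 0.155) and with times to 60 min only (0.33, adjusted p = 0.205). For late minus early (1, NDC80) it was 0 with no filter, the mean of probesets, a 1.5-fold minimum and 240 min alone as late, and 0 to 2 without single arrays. With the replicate block the 1 gene called was another, UBE2C (0.26, adjusted p = 0.0435), and NDC80 differed by -0.27 (adjusted p = 0.109). The cause of these changes was not tested. The labels do not say whether the replicate numbers pair the arrays. Over 45 pairs of groups the correlation of replicate differences was -0.20 to 0.31 (median 0.03), and 12 pairs were over 0.1. The replicate block gave 21 called genes for EGF minus DEX and 12 for EGF+DEX minus EGF. The calls it changed in other comparisons are given above. With 2 untreated arrays that differ, and 1 array per treatment at 120 and 240 min, differences from untreated cells and at late times are the least precise.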
